A study of Mus musculus with 2 samples.

Results

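Platelet granule cargo and the cell machinery of megakaryocytes were described through 10 genes, taken by their symbol from the 30165 gene names on the arrays, and all 10 had a probe. Bone marrow mononuclear cells (BM MNCs), which include blood-forming and immune cells, came from the femurs of C57/Bl6J mice aged 2 to 4 months, flushed out in medium holding 2% fetal bovine serum. A culture with no drug (control) and one treated with ninjin'yoeito (NYT), a herbal medicine, were collected at day 11, and total RNA of each was hybridised to 1 one-colour Agilent mouse array. The sources used here give neither the dose of NYT nor the number of animals, nor whether both cultures came from the same ones. Each group had 1 array, so every difference below is between 2 arrays, with no replicate check, no p-value and no spread between cultures.

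Megakaryocytes are the large marrow cells that shed platelets. They pack chemokines and adhesive and clotting proteins into alpha granules, move the granules along microtubules into long processes called proplatelets, and hand them to the platelets, which release the cargo when activated. Some of these genes are also used by other cells, such as endothelial cells, leukocytes or neurons, so their RNA need not come from megakaryocytes alone. The labels do not say which of these cell types the cultures held.

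Signal of most of these genes was far lower on the array of the NYT culture. Of the 9 genes measured on both arrays, 7 were at least 2-fold lower and 0 at least 2-fold higher, and the same 7 were past 3-fold, beside 6.87% of all measured genes. The remaining gene, Tubb1, was well above background on the control array alone. Among all 16996 genes measured on both arrays 11% were at least 2-fold lower and 11.2% at least 2-fold higher, and among the 19404 genes detected on 1 or both arrays 13.4% were lower when bounds were included. The median log2 difference, NYT minus control, was -3.12 over the 9 genes and 0.29 over all measured genes. The 10 genes were chosen with earlier results of these arrays known, so this contrast is a description. In RNA from a whole culture, fewer cells of a type and less RNA per cell cannot be told apart.

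Differences are given on the log2 scale after each array was scaled to its 75th percentile. Before scaling, that percentile was 1476 for control and 728 for NYT (a ratio of 2.03), so the scaling itself adds 1.02 to each log2 difference. Probes well above background made up 62.2% of the control array and 57.7% of the NYT array, and no spot was saturated. The errors of single intensities below are those of the scanner software for 1 spot, and they cover neither cultures nor hybridisations. Among 247 probes printed 10 times on each array, spot noise gave a difference a median SD of 0.05.

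**Figure D1:**
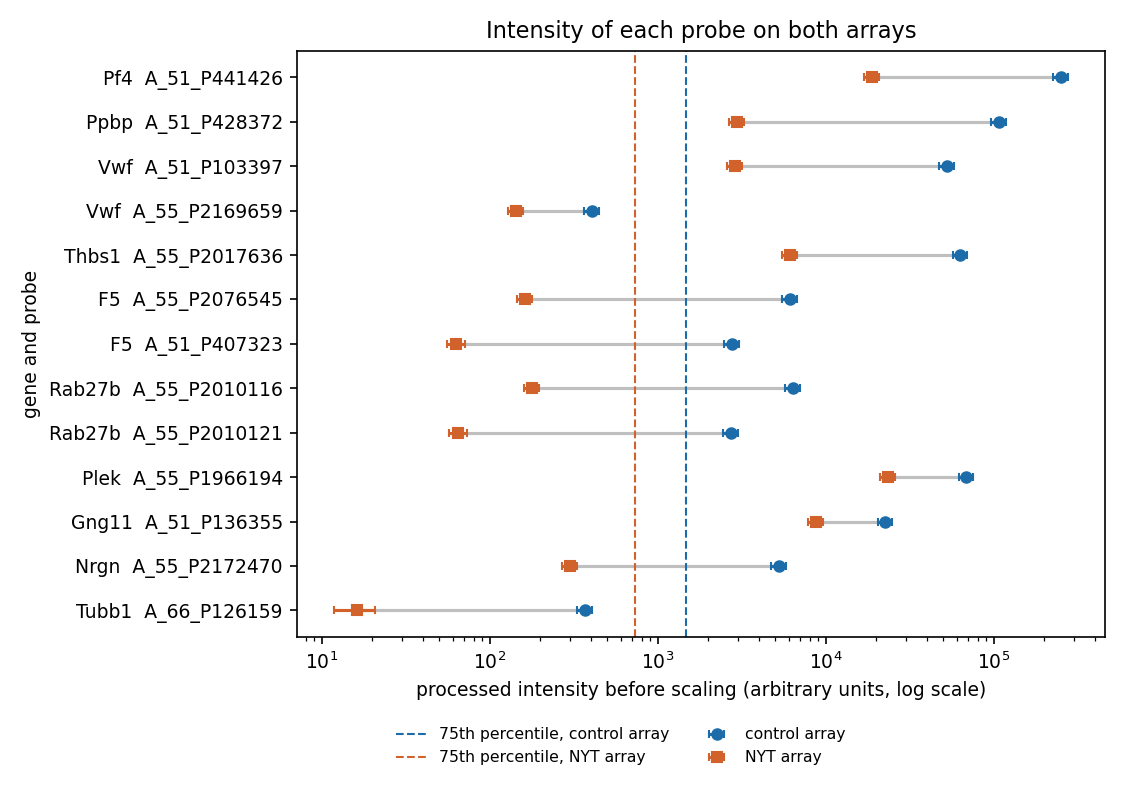
Processed intensity before scaling (log axis, arbitrary units) of the 13 probes on the control array (circles) and the NYT array (squares), with the scanner software's error for 1 spot as bars and each array's 75th percentile as a dashed line. Every probe was brighter on the control array; the pairs for Plek, Gng11 and the second Vwf probe lie closest together. Levels of different probes are not comparable.

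The cargo chemokines Pf4 and Ppbp were both lower on the NYT array. Platelet factor 4, encoded by Pf4, binds heparin and similar sugar chains and is among the most abundant proteins of the alpha granule. Its probe read 251344 ± 25134 for the control culture and 18723 ± 1872 for the NYT culture. After scaling the difference was -2.73, or 6.62-fold lower. Pro-platelet basic protein, encoded by Ppbp, is the precursor of the neutrophil-attracting chemokine CXCL7. Its probe read 107567 ± 10757 for the control culture and 2959 ± 296 for the NYT culture, a difference of -4.16 or 17.9-fold lower. Although both are granule chemokines, their differences were 1.44 apart, more than the 0.29 that the software's error gives for a gap between 2 differences.

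These 2 genes are neighbours. Their probes begin 3305 bases apart on chromosome 5 of the mouse build mm9, for Ppbp at 91198970 to 91199029 and for Pf4 at 91202275 to 91202334, both on the plus strand. The 250 bases before each start site, from RefSeq on build GRCm38.p6, are shown because the genes lie side by side and were both lower. Capitals mark the letters AGGAAG or CGGAAG, a core of ETS factor sites, on either strand, and TATAAA, the TATA box, on the gene's own strand.
Pf4 promoter, chr5:90772185-90772434, plus strand: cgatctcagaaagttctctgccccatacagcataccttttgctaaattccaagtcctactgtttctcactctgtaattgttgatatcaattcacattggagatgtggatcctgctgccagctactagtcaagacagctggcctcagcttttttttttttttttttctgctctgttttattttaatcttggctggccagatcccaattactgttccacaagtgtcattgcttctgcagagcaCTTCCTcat
Ppbp promoter, chr5:90768268-90768517, plus strand: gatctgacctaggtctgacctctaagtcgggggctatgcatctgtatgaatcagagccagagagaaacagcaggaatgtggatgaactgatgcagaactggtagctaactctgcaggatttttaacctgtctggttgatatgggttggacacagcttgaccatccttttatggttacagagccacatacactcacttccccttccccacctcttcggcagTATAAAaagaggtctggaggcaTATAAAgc
The Pf4 stretch holds 1 ETS core, beginning 9 bases before the start site, and the Ppbp stretch holds TATAAA beginning 30 and 8 bases before it. Over the 300 bases searched, which add 50 after the start site, 46.5% of 32851 mouse promoters held the ETS core and 8.32% held TATAAA. Of the 6 genes with a promoter in the table, 3 held the ETS core (F5, Pf4 and Tubb1) and 1 held TATAAA (Ppbp). The windows of Nrgn and Plek, not shown here, held neither. The GATA core was searched on either strand in 4 forms. The form AGATAA stood in Pf4, 37 bases after the start site and so outside the stretch shown, and in none of the other windows. The form AGATAG was not found in any of the 6 windows, and neither was TGATAA. The last form, TGATAG, was also found in 0 of 6. Of all promoters 29.8% held at least 1 of these forms. The letters TGAGTCA, part of the NF-E2 site, were in 0 of the 6 windows and in 5.20% of all. A match is a run of letters and no evidence of binding.

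Of the other CXC chemokines that share this gene cluster, all 3 that were measured on both arrays were at least 2-fold lower. These were Cxcl2, Cxcl3 and Cxcl5, which attract neutrophils, at -4.55, -3.68 and -3.44. Cxcl1 was detected on the control array alone and was at least 5.50-fold lower, and Cxcl15 was well above background on neither array.

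The adhesive cargo proteins Vwf and Thbs1 were also lower. Vwf encodes von Willebrand factor, which tethers platelets to injured vessel walls and is made by megakaryocytes and endothelial cells. The probe matching the RefSeq transcript read 52582 ± 5258 for the control culture and 2882 ± 288 for the NYT culture, a difference of -3.17 or 9.00-fold lower. A second probe, designed on an Ensembl transcript, read 404 ± 41 and 143 ± 15, a difference of -0.48. Thus the probes for Vwf differ in size of change, the second being under 2-fold, and the mean of both was -1.82. The first lies on chromosome 6 at 125636551 to 125636610 and the second 94445 bases before it at 125542106 to 125542165 (mm9, plus strand). What the annotation places under the second probe was not analysed here. The first 30 of the 60 bases of each are shown because the 2 probes disagree.
Vwf probe A_51_P103397: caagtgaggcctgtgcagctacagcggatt
Vwf probe A_55_P2169659: tagttaaacagaacaacagtgaagggcgga

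Thrombospondin 1, encoded by Thbs1, is an adhesive glycoprotein of the alpha granule that is also secreted by macrophages and stromal cells. Its probe, on chromosome 2 at 117952585 to 117952644 (mm9, plus strand), read 63158 ± 6316 for the control culture and 6128 ± 613 for the NYT culture. The difference of -2.35, or 5.08-fold lower, was the smallest of the 7 past 2-fold. Among the other thrombospondins Comp stood at -1.10 (-0.91 with quantile normalization and -0.41 with normexp) and Thbs3 at 0.01, Thbs2 was detected on the control array alone and at least 2.77-fold lower, and Thbs4 was well above background on neither.

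Genes for proteins that bind these cargo proteins were set beside them. The 14 receptor genes for thrombospondin, platelet factor 4 or the product of Ppbp were all measured. Of these, 2 were at least 2-fold lower, 1 at least 2-fold higher and 11 within 2-fold, with a median of 0.44. Among all measured genes the shares were 11% lower and 11.2% higher, so these counts lay near them. Cxcr2, a chemokine receptor of neutrophils that binds the product of Ppbp, stood at -4.99 and Cxcr3 at -1.81, while Cd36, a scavenger receptor that binds thrombospondin 1, stood at 1.01 and -0.01 without scaling. Without scaling 5 were lower and 0 higher and the median was -0.58, so its direction depended on the scaling. Of 9 measured genes for the binding, capture or clearance of von Willebrand factor, 7 were at least 2-fold lower (median -3.50), led by the platelet integrin subunit Itga2b (-4.65) and the receptor subunits Gp9 (-4.50) and Gp1ba (-4.32). With normexp 5 of the 9 were lower (median -2.98), and without scaling all 9 were (median -4.52).

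Coagulation factor V was among the 3 lowest of the 9 genes. F5 encodes a cofactor of the enzyme complex that makes thrombin, carried in plasma and in platelet granules. The brighter probe, on chromosome 1 at 166150216 to 166150275 (mm9, plus strand), read 6094 ± 609 for the control culture and 162 ± 16.6 for the NYT culture, a difference of -4.22 or 18.6-fold lower. A second probe read 2755 ± 276 and 63.1 ± 7.51, a difference of -4.43. Its ends lie 2189 bases apart in the genome, from 166139728 to 166141916, so the probe crosses at least 1 intron and reads spliced RNA. The 2 probes thus gave like values from separate stretches of the transcript. The first 30 bases of both are shown with the promoter, whose 1 ETS core begins 124 bases before the start site.
F5 probe A_55_P2076545: tgggcaaaagtgcttgctgccaaaacaaaa
F5 probe A_51_P407323: gaagagcgggaagagcgtgatgtattttac
F5 promoter, chr1:164151585-164151834, plus strand: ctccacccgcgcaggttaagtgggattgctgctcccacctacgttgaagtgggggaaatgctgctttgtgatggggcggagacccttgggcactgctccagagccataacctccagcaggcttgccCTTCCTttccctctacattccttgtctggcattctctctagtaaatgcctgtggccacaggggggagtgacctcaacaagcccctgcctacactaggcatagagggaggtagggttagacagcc

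Genes that work with factor V went both ways. Of 15 measured partners, 3 were at least 2-fold lower and 4 at least 2-fold higher, and the median was 0.34, or -0.68 if the arrays were left unscaled, with 5 lower and 2 higher. Mmrn1, multimerin, which binds factor V inside platelet granules, stood at -4.52. Mcfd2 and Lman1, whose products carry factors V and VIII out of the endoplasmic reticulum, stood at 1.06 and 0.89, and Mcfd2 at 0.68 with quantile normalization and 0.04 without scaling. Procr, the protein C receptor, stood at 3.18. F10, the enzyme that factor V assists, stood at 2.49 by its brightest probe and -0.68 by another.

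Tubb1, the beta tubulin of megakaryocytes and platelets that forms the marginal microtubule band, was detected for the control culture alone. Its probe, on chromosome 2 at 174283277 to 174283336 (mm9, plus strand), read 367 ± 37.1 for the control culture and 16.3 ± 4.43 for the NYT culture, where it was not well above background. It was at least 9.43-fold lower, the control value being set against the lowest signal well above background on the NYT array. The other detection flag, which asks only for significance, kept the spot and gave -3.48. The probe's first 30 bases and the promoter, with its ETS core 106 bases before the start site, are shown because Tubb1 is the member whose difference is a bound.
Tubb1 probe A_66_P126159: acctggtgtctgagtaccaacaattccaag
Tubb1 promoter, chr2:174450345-174450594, plus strand: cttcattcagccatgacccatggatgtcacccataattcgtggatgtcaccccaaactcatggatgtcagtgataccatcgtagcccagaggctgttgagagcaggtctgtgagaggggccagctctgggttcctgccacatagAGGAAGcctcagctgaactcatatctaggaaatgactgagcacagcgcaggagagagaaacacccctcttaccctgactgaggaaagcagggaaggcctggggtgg

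Of the 6 other beta tubulins measured, 4 lay within 2-fold, 1 was at least 2-fold lower, Tubb2b at -1.15, and 1 at least 2-fold higher, Tubb6 at 1.08, with a median of 0.38 (-0.64 without scaling). Neither call was made with quantile normalization or in the authors' deposited value table, and without scaling 2 were lower and 0 higher. Tubb3 was detected on the control array alone and was at least 2.99-fold lower. In the wider list of proplatelet cytoskeleton genes 10 of 23 measured were lower and 0 higher, with a median of -0.83. Without scaling 18 were lower (median -1.84), and with spike-in scaling 19 (median -2.01). With the mean over the probes of a gene 7 were lower (median -0.54). Tuba8, an alpha tubulin of platelets, stood at -4.34 and Myl9, a myosin light chain, at -4.16, whereas Actb stood at 0.82 and Pfn1 at 0.42.

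In the granule transport group Rab27b was among the 3 lowest of the 9 genes. Rab27b encodes a small GTPase that guides granules to the cell surface in platelets and mast cells. The brighter probe, on chromosome 18 at 70143485 to 70143544 (mm9, minus strand), read 6376 ± 638 for the control culture and 177 ± 18.2 for the NYT culture, a difference of -4.15 or 17.8-fold lower. The other, at 70138799 to 70138858, read 2720 ± 272 and 64.8 ± 7.92, a difference of -4.37. Both probes thus gave differences within the software's error of each other. Rab27a, the close relative of Rab27b in leukocytes, stood at -2.78, and Sytl4, an effector of Rab27, at -4.36. Of the 16 measured genes for granule release 5 were lower and 0 higher by 2-fold, with a median of -0.14, with 11 within 2-fold. Rph3al, detected on the control array alone, was at least 2.14-fold lower. Granule biogenesis genes had a median of -0.06, with 5 of 22 lower and 1 higher. The lower ones included Slc35d3, needed for platelet dense granules (-4.01), Gfi1b, a transcription factor (-3.78), and Slc18a2, a monoamine transporter (-3.24), and the one past 2-fold higher was Vps18 (1.18). Vps18 stayed under 2-fold with quantile normalization (0.97), after loess (0.81), without scaling (0.16), with spike-in scaling and in the authors' deposited value table (0.96). Without scaling 8 release genes and 13 biogenesis genes were lower, with medians of -1.16 and -1.08.

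The signalling members split. Nrgn encodes neurogranin, a calmodulin-binding protein known from neurons and also present in platelets. Its probe, on chromosome 9 at 37352694 to 37352753 (mm9, minus strand), read 5271 ± 527 for the control culture and 299 ± 30.2 for the NYT culture, a difference of -3.12 or 8.70-fold lower. Plek encodes pleckstrin, the main substrate of protein kinase C in platelets, present in leukocytes too. Its probe, on chromosome 11 at 16871476 to 16871535 (mm9, minus strand), read 68486 ± 6849 and 23399 ± 2340, a difference of -0.53 or 1.44-fold lower. Gng11 encodes a gamma subunit of heterotrimeric G proteins. Its probe, on chromosome 6 at 3958364 to 3958423 (mm9, plus strand), read 22560 ± 2256 and 8734 ± 873, a difference of -0.35 or 1.27-fold lower.

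Plek and Gng11 thus stayed under 2-fold. Their place relative to that threshold depended on the scaling. Plek stood at -0.95 with quantile normalization, -1.05 after loess and -1.55 without scaling, and Gng11 at -0.64, -0.76 and -1.37. Without scaling all 9 measured genes were at least 2-fold lower, beside 36.4% of all measured genes. Scaled to spike-in RNA all 9 were as well, beside 44%.

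Other G protein gamma subunits lay above 0 as scaled, with a median of 0.64 over 7 measured genes (-0.38 without scaling), 0 lower and 1 higher, Gngt2 at 1.07. Gngt2 stayed under 2-fold with quantile normalization (0.61), loess (0.52), no scaling (0.05), spike-in scaling (-0.11), normexp (0.98) and the authors' deposited value table (0.61). Gng8 was detected on the NYT array alone and was at least 7.96-fold higher. Among 28 measured genes of platelet signalling, 14 were lower and 1 higher, with a median of -0.92. Without scaling 23 were lower and 0 higher (median -1.93), with spike-in scaling 24 and 0 (median -2.10), and with no filter on dim probes or the other detection flag, over 32 genes, the median was -2.03. The lowest were Gucy1a1 and Alox12, a subunit of the nitric oxide receptor and a platelet lipoxygenase, at -4.38 and -4.37, and the thrombin receptor F2r at -4.28. The highest was Ptgir, the prostacyclin receptor, at 1.92. The 4 remaining genes were detected on the control array alone. The thrombin receptor F2rl3 was at least 20.6-fold lower, its relative F2rl2 at least 11.7-fold, the adrenergic receptor Adra2a at least 8.74-fold and the ADP receptor P2ry12 at least 4.29-fold.

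**Figure D2:**
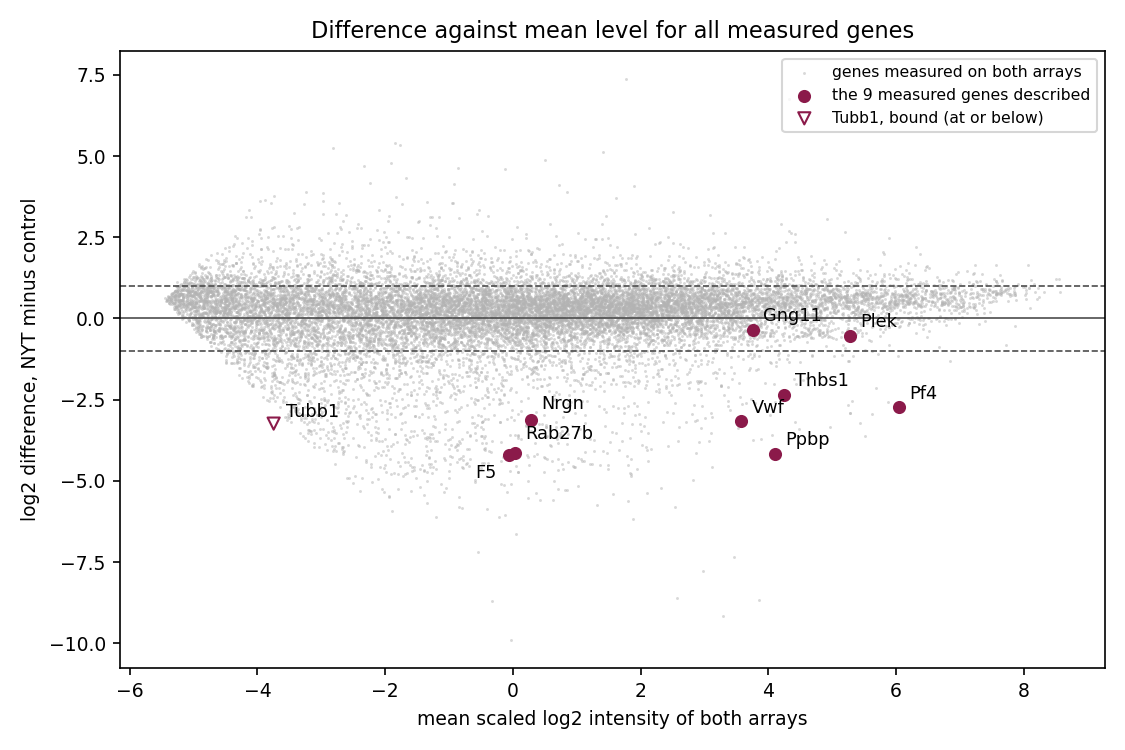
Log2 difference, NYT minus control, against the mean scaled log2 intensity for the 16996 genes measured on both arrays (grey), with the 9 genes in purple and Tubb1 at its bound (open triangle); dashed lines mark 2-fold. Thbs1, Pf4, Nrgn, Vwf, Rab27b, Ppbp and F5 lie between -2.35 and -4.22, and Plek and Gng11 lie between the dashed lines.

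In order of difference F5 (-4.22), Ppbp (-4.16) and Rab27b (-4.15) came lowest, with gaps of 0.05 and 0.01 that did not exceed the spot noise SD of 0.05. That tie depended on the processing. Ppbp was lowest with quantile normalization, at -4.51 against -4.22 for F5 and -4.16 for Rab27b, and with normexp, at -4.23 against -3.75 for both. Vwf and Nrgn followed, 0.98 above Rab27b and 0.05 apart. Pf4 and Thbs1 came next, 0.39 above Nrgn and 0.38 above Pf4, more than the software's error of 0.29. This order also changed, since Pf4 lay below Nrgn with quantile normalization (-3.30 against -3.13) and in the authors' deposited value table (-3.27 against -3.10), and Vwf, at -1.82 with the mean over its probes, then lay above both Pf4 and Thbs1. As scaled, the widest gap, 1.82, separated Thbs1 from Plek. Of all measured genes 170 were at or below F5 and 706 (4.15%) at or below Thbs1, whereas 3083 (18.1%) were at or below Plek and 3898 (22.9%) at or below Gng11. All 9 measured genes belonged to the brighter 50% of measured genes, among which 7.37% were at least 2-fold lower.

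**Figure D3:**
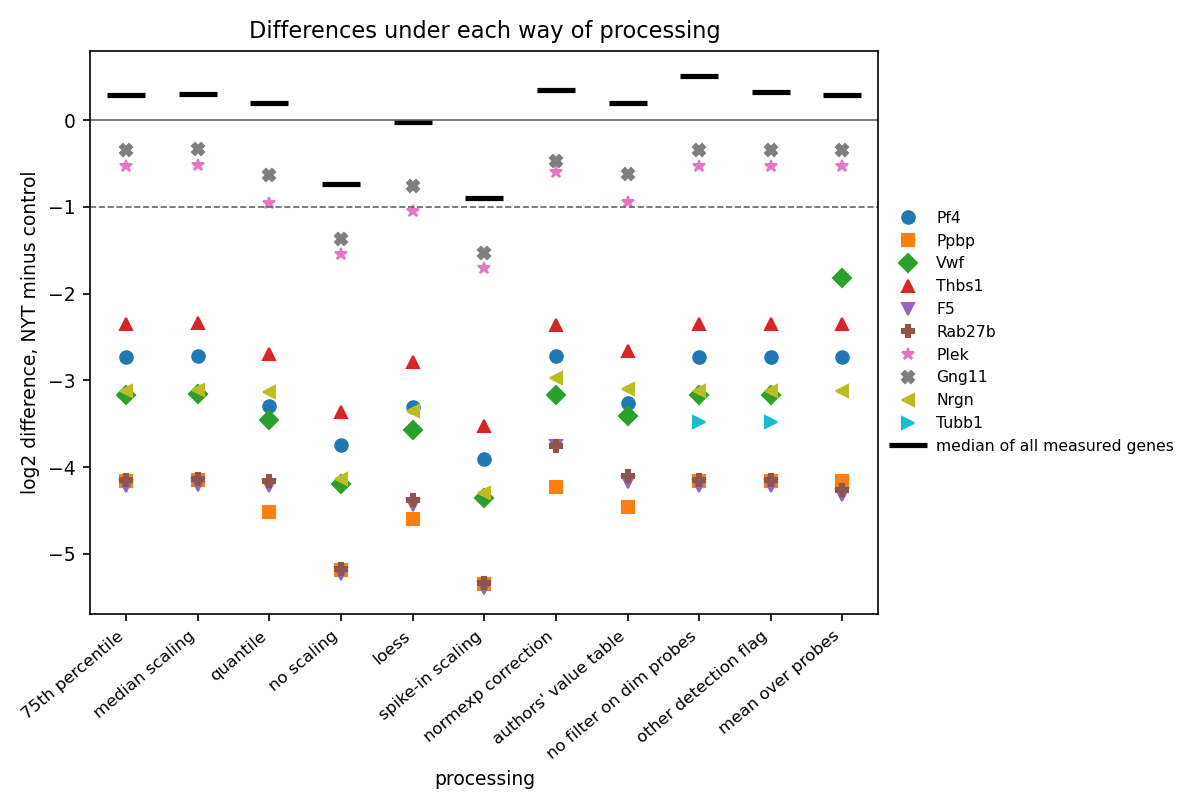
Log2 difference, NYT minus control, of each gene under 11 ways of processing (symbols), with the median of all measured genes in each (black bars); lines mark 0 and 2-fold lower. Values shift together without scaling and with spike-in scaling, where Plek and Gng11 pass 2-fold, and Vwf moves to -1.82 when its probes are averaged. Tubb1 has a value in only 2 of them.

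Other cargo, surface and regulator genes of the platelet programme were described in the same way. Of 19 other measured cargo genes 13 were lower and 2 higher, with a median of -2.60. The median was -1.59 over 22 genes with no filter on dim probes or the other detection flag, and -3.62 without scaling. Apart from Mmrn1, the lowest were Clu, the chaperone clusterin, at -4.39, and Ctla2a, a cathepsin inhibitor, at -4.15. Past 2-fold higher were the growth factors Gas6 (1.39) and Pdgfa (1.33). With quantile normalization and in the authors' deposited value table only Pdgfa was (1.15 and 1.14), and after loess, without scaling and with spike-in scaling neither was. Of 15 measured surface glycoproteins 10 were lower and 1 higher, with a median of -3.96 and Selp, P-selectin of the granule membrane, lowest at -4.68. The higher one was Cd36, which at 1.01 stood at the threshold and was under it with quantile normalization (0.69), loess (0.56) and no scaling (-0.01), with spike-in scaling (-0.17), with normexp (0.99) and in the authors' deposited value table (0.67). With normexp the list's median was -2.98. On the control array alone, Cd226 was at least 19.2-fold and Jam3 at least 3.87-fold lower. Itgb3, the integrin partner of Itga2b that other leukocytes also make, stood at -0.02. Among 21 measured regulators of the lineage 9 were lower and 0 higher, with a median of -0.84. Without scaling 18 were lower (median -1.86), as were 18 with spike-in scaling (median -2.02). Among the lower ones the transcription factors Gata2 and Gata1 stood at -5.18 and -3.86. Nfe2, which drives Tubb1 and platelet release, stood at -3.45. Members of several lists recur, so the lists are not independent.

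**Figure D4:**
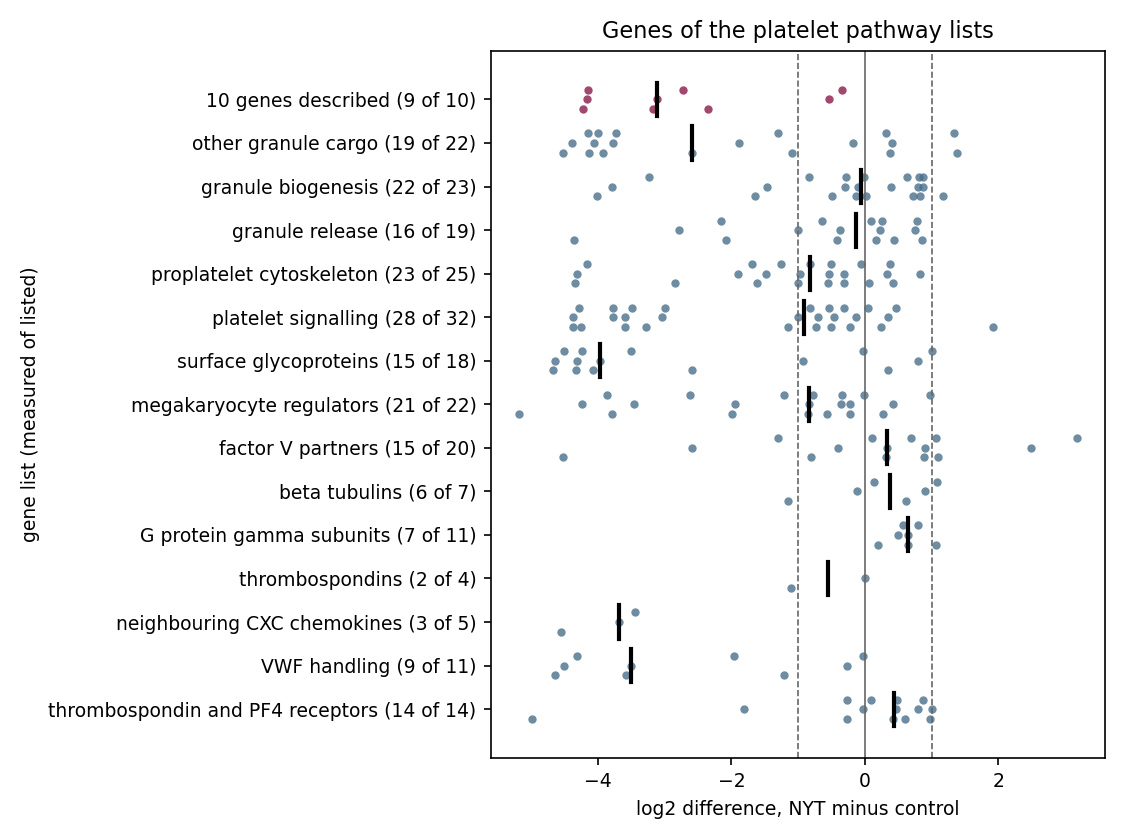
Log2 difference, NYT minus control, of each measured gene (points) in the platelet pathway lists, with the median as a black bar and 2-fold as dashed lines. Surface glycoproteins and other cargo centre near -4 and -2.60, and granule biogenesis and release near 0.

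Markers of cells that could supply these transcripts were set beside them, and not all moved. The summed level of a marker list, in units of the array's 75th percentile, over its genes detected on 1 or both arrays, is given for control and then NYT; it adds up different probes, so the brightest weigh most. Of 15 megakaryocyte markers 14 were at least 2-fold lower (13 with median scaling), the other being Itgb3, and the sum went from 148 to 54.8. Itgb3 alone made up 45.3 and 44.6 of it, and the other 14 summed to 103 and 10.2. Of 14 endothelial markers 4 were measured on both arrays, 3 of them lower; 8 were detected on the control array alone, 5 of those at least 2-fold lower; Sox17 and Flt4 were not well above background on either. Their sum was 8.67 and 9.44. Kdr made up 4.37 and 8.63 of it and stood at 0.98 by the brighter and 0.04 by the other probe. Of 13 measured macrophage markers 7 were lower and 1 higher (sum 576 and 472, of which Cd68 gave 78.2 and 177), and Timd4, on the control array alone, was at least 2.45-fold lower. Stromal markers had 5 of 8 measured lower and 1 higher (sum 24.1 and 6.89, of which Lepr gave 1.70 and 4.34), 3 more were on the control array alone, and Adipoq was on neither. Neuron markers, set beside Nrgn, had 0 of 3 measured past 2-fold (sum 3.61 and 4.62), and the other 7 were not well above background.

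Markers of several other lineages were mostly lower as well. All 7 measured mast cell and basophil markers were lower, and 2 more were found on the control array alone (sum 53.4 and 1.47). Lower markers numbered 7 of 8 for eosinophils (81.2 and 6.18), 10 of 11 for neutrophils (884 and 334, of which S100a9 gave 252 and 213) and 7 of 9 for monocytes (278 and 75.9, of which S100a4 gave 26.5 and 32.1). Erythroid markers had 2 of 4 measured lower and 1 higher, with 5 on neither array, Klf1 among them. Hemgn alone gave 81.7 and 83.1 of their sums of 86.3 and 83.6, and the other 3 measured summed to 4.53 and 0.51. General leukocyte markers had 1 of 10 lower (4 with quantile normalization and 5 without scaling), a median of -0.01 (-0.42 and -1.03) and sums of 358 and 291, and all 10 were well above background on both arrays. The part of these cell types in the differences of the 10 genes was not tested.

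**Figure D5:**
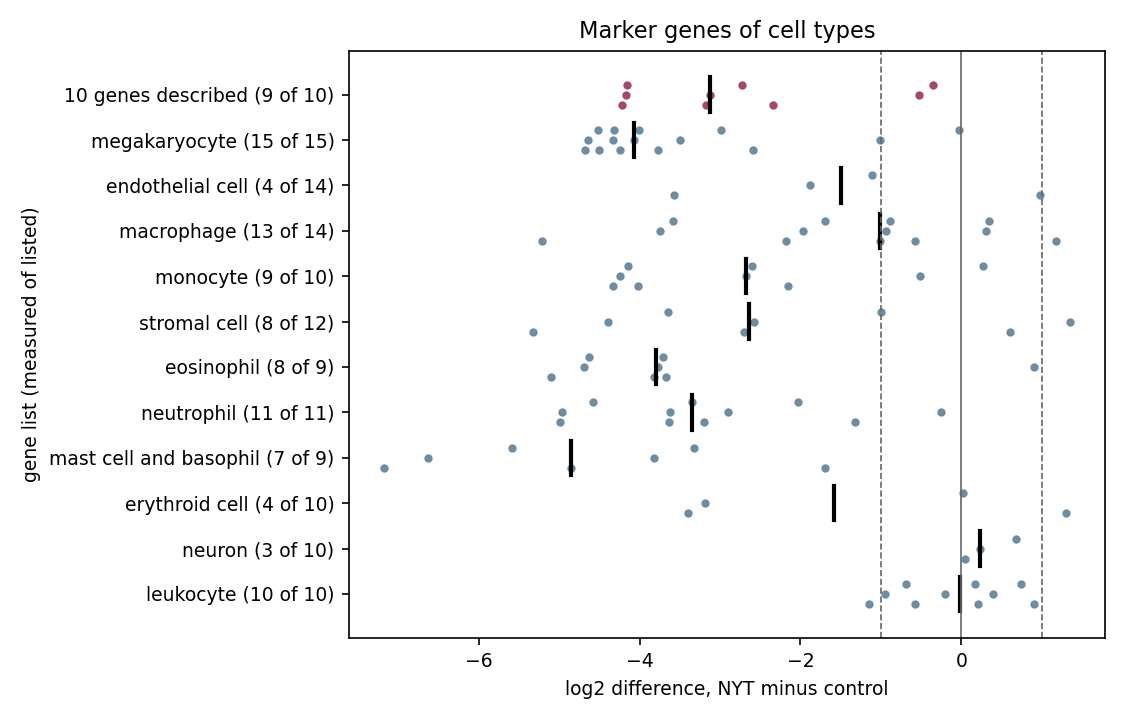
Log2 difference, NYT minus control, of each measured marker gene (points) of 11 cell type lists beside the 10 genes, with the median as a black bar and 2-fold as dashed lines. Medians are -4.86 for mast cell and basophil markers, -4.07 for megakaryocyte, -3.80 for eosinophil, -3.35 for neutrophil, -2.67 for monocyte and -2.64 for stromal markers. They are -1.58 for erythroid, -1.49 for endothelial, -1.01 for macrophage, -0.01 for general leukocyte and 0.23 for neuron markers.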

How the data were processed

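Total RNA of 1 control and 1 NYT culture was measured on arrays of 1 slide, and groups follow the treatment in the labels. The authors deposited spot intensity values and spot flags as scanner output; the software, per the file headers, was Agilent Feature Extraction version 10.7.1.1 (the submitters' processing notes name 9.5.1.1), detrended and with background correction off. A value table deposited by the authors, also an intensity on a linear scale with equal quartiles in both columns, served as an alternative; its making is not given in the sources used. Different RNA kits are named in the labels and in the design text.

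Spots flagged as outliers (258 on control, 165 on NYT, of 43020) were left out, spots of a probe averaged as log2 values and each array's 75th percentile subtracted. A gene was its brightest probe with more than 50% of spots well above background on both arrays. A gene detected on 1 array got a bound, set against whichever was higher on the dim array, the lowest signal counted as well above background or that probe's own signal. A difference was counted from 2-fold. Probes were named through RefSeq genes of GRCm38.p6, and probe coordinates are mm9, per the file headers. There was no test; the number of arrays limits the precision, and where nothing says cultures were separate, spot errors are technical. The members, the 14 other pathway lists and 11 marker lists were chosen with earlier results of these data known. All members were named, and from each list up to 3 genes of largest difference in each direction and genes on 1 array with a bound of at least 2-fold could be named; Lman1, Mcfd2, Nfe2, Itgb3 among surface glycoproteins, the undetected Thbs4 and Cxcl15 and the single markers named were chosen after their values were seen. The counting step was tested on simulated data. Alternatives used limma 3.58.1 in R 4.3.3; the rest used Python 3.11.15.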

Additional observations from a re-analysis of the deposited data

How the results depend on the processing

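No paired analysis was possible because control and NYT had 1 array each and nothing was tested, and leaving out an array would leave no comparison. The 11 alternatives were another scaling (median, quantile, none, loess between arrays, spike-in RNA), normexp background correction, values from the authors' table, dropping the filter on dim probes, another detection flag, the mean over the probes of a gene and a 3-fold threshold. The cause was not tested for any shift below, except that removing the scaling lowers each difference by 1.02 and that another filter or threshold changes which genes are counted.

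The number of the 10 genes at least 2-fold lower was 7 of 9 measured as scaled, 8 after loess, 8 of 10 with no filter or the other flag, and 9 without scaling or with spike-in scaling; 0 were higher under any of these. The median over the genes was -3.30 with quantile normalization, -4.14 without scaling, -3.35 after loess, -4.30 with spike-in scaling, -2.97 with normexp, -3.27 in the authors' value table and -2.73 with the mean over probes. Less the median of all genes, it was -3.41 as scaled. Leaving out the scaling cannot change that figure, since the scaling shifts every gene alike, so its sameness is no check. Every measured member stayed below 0 throughout. Of 16996 measured genes, those at least 2-fold lower and higher numbered 6190 and 211 without scaling and 7485 and 166 with spike-in scaling. At 3-fold they numbered 1167 and 507, and after loess 944 were higher. With no filter 3414 and 4755 of 30163 genes were counted, so 11.3% were lower beside 11% as scaled. With the other flag 3577 of 22445 were higher and 12.2% lower. The erythroid marker median turned from -1.58 to 0.56 with no filter on dim probes. Stromal and endothelial marker medians were -1.51 and -1.03 with normexp (-2.64 and -1.49 as scaled). With no filter the endothelial median was -2.14 over 14 genes. With median scaling the lower genes numbered 4 of 16 for granule release and 9 of 23 for the proplatelet cytoskeleton (5 and 10 as scaled). They numbered 13 of 28 for platelet signalling and 6 of 13 for macrophage markers (14 and 7 as scaled). For megakaryocyte markers they numbered 13 of 15 (14 as scaled). Signal near background limits Tubb1, whose value on the NYT array is only a bound.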
